A study of Anopheles gambiae with 104 samples.

Results

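In the heads of female Anopheles gambiae, 51 probe sets of 16884 swung strongly over the day under a light:dark cycle and were fitted to peak early in the night, while bodies from the same collections did not pass the same thresholds. These 51 probe sets were chosen by their measured values. The 2 arrays of each time point were averaged, and a cosine curve with a period of 24 h was fitted to each tissue and light regime. A rhythm counted as strong with an amplitude (from mean to peak) of at least 0.5 on the log2 scale, an R2 of at least 0.7 and a mean level of at least 4. The 51 were strong in heads under the light:dark cycle, not strong in bodies under it, and had a fitted head peak from 14 h to under 18 h, counted so that lights went off at 12 h. Of 519 probe sets strong in heads in that regime, 404 were not strong in bodies, and the 51 are the early-night share of those 404.

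Anopheles gambiae is a night-active vector of malaria: females fly, feed and lay eggs mostly after dusk. Daily rhythms of transcripts in insects are driven by the light cycle and by an internal clock, a loop of transcription factors that inhibit their own production and that keeps running in constant darkness. The head holds the brain, compound eyes, antennae and mouthparts, so it carries both clock neurons and the sense organs used in host seeking. Rhythms that persist in darkness are called circadian, and those measured under a light cycle are called diel.

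The mosquitoes were adult females of the Pimperena strain, S form, mated and not blood fed, and 7 to 9 days old when collection began. They were kept in constant dark (DD) or under a cycle of 11 h of full light with dawn and dusk ramps of 1 h each (LD), and 20 to 30 were pooled per collection before heads, with antennae and mouthparts, were parted from bodies, with legs and wings. This gave 4 arms of 26 arrays each: heads in DD, bodies in DD, heads in LD and bodies in LD. Each arm has 13 collections 4 h apart over 48 h with 2 arrays each, from circadian time CT0 (subjective dawn) to CT48 in DD and from zeitgeber time ZT12 (lights off) to ZT60 in LD. Whether the 2 arrays of a collection had separate pools of mosquitoes is not stated, so p-values measure the spread of the collections around the fit. Heads and bodies are mixtures of tissues, and fewer cells of a type cannot be told apart from less RNA per cell.

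The probe sets have no gene names here, since none of the 51 matched the reference gene table, so they are given by ID, at most 2 for each pattern, and their tissues were not checked by marker genes. Their names place 13 on chromosome arm 2L, 13 on 2R, 5 on 3L, 14 on 3R, 5 on X and 1 on no known arm. The names mark 38 as coding sequence, 5 as untranslated region and 8 as neither. They fall into 47 named clusters, and 4 clusters hold 2 of the 51 each, which may measure the same transcript.

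Control probe sets of the arrays touch these results. The difference between the 3′ and 5′ control probe sets of Gapdh, a glycolytic enzyme, averaged 4.40 ± 0.97 log2 in DD heads and 4.34 ± 0.58 in DD bodies, against 2.59 ± 0.20 in LD heads and 3.04 ± 0.46 in LD bodies (SD, n = 13 collections each). The bacterial dap transcript, added before labelling, gave 2.73 ± 0.23, 2.19 ± 0.32, 1.51 ± 0.20 and 0.87 ± 0.27 in the same order of arms. In heads at CT44 the Gapdh difference reached 7.54, against 4.51 at the next highest collection, and in bodies at ZT52 the 2 arrays differed more than at any other collection of that arm. The part of RNA quality and labelling in any difference between DD and LD was not tested.

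Under the light:dark cycle the 51 head profiles formed 1 wave with its crest in the first hours of darkness. The median deviation from each probe set's own mean was 0.53 at ZT12, 0.67 at ZT16, 0.28 at ZT20, -0.39 at ZT24, -0.83 at ZT28 and -0.43 at ZT32, in log2 units. On the second day it was 0.40 at ZT36, 0.58 at ZT40, 0.24 at ZT44, -0.42 at ZT48, -0.83 at ZT52 and -0.60 at ZT56, with 0.45 at ZT60. The fall through the night was thus steeper after ZT20 and ZT44, and the levels were lowest in the morning. The highest single collection fell 4 h after lights off (clock hour 16) in 30 of the 51, at lights off (12) in 20 and at clock hour 20 in 1. The lowest fell 4 h after dawn (clock hour 4) in 39, at 8 in 11 and at 0 in 1. These values chose the probe sets and are given as a description with no test.

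**Figure D1:**
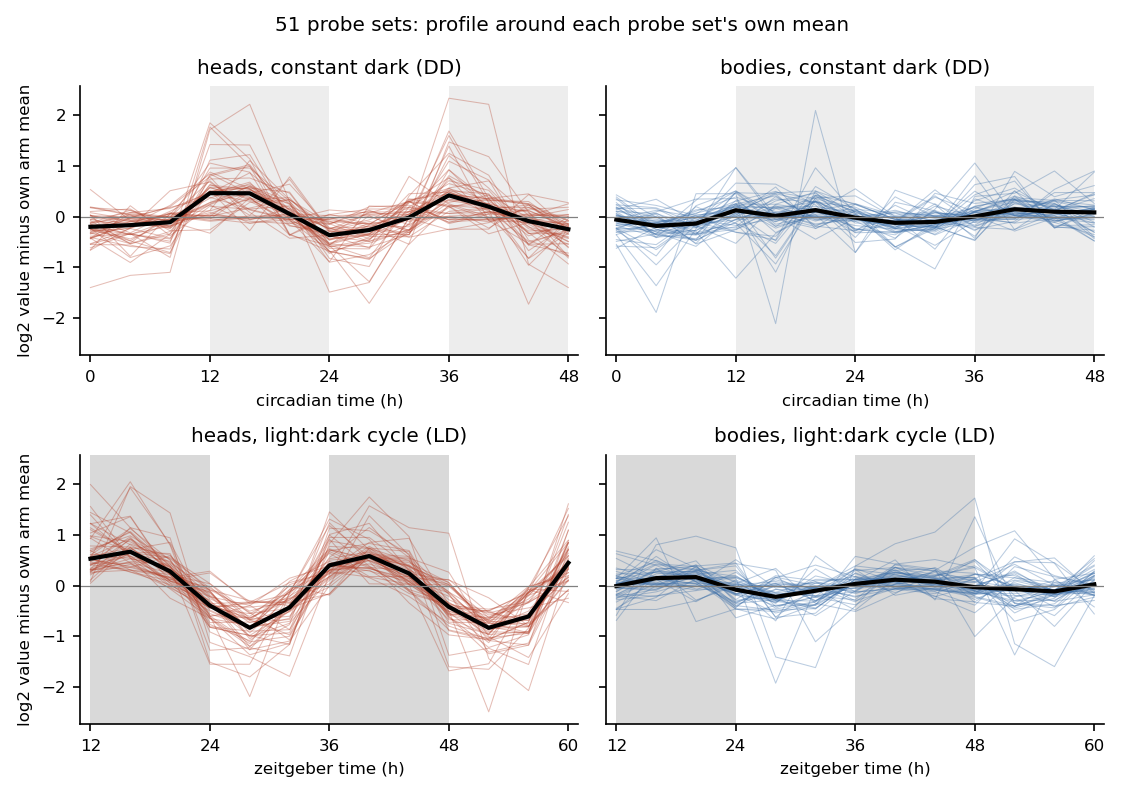
Log2 value minus each probe set's own mean in that arm (vertical) by hour (horizontal) for the 51 probe sets (thin lines) with their median (black), heads left and bodies right, DD above and LD below; grey marks darkness in LD and subjective night in DD. The LD heads crest at 0.67 at ZT16 and dip to -0.83 at ZT28, the DD heads crest at 0.46 at CT12, and the body medians stay within 0.22 of 0.

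The head amplitudes in LD had a median of 0.77 log2 and ranged over 0.51 to 1.85. In fold from fitted trough to fitted peak, this is a median of 2.92 and a range of 2.03 to 13.01. In 3 of the 51 the lowest collection was under the 95th percentile of the malaria parasite probe sets (3.66), so the fold of these, the highest value included, depends on troughs not above background. Mean head levels spread from 4.33 to 12.00, so the group holds both dim and bright transcripts. Fitted peaks had a median of 15.8 h, with 13 probe sets in the hour from 14, 16 in the hour from 15, 15 in the hour from 16 and 7 in the hour from 17. On the arrays of each replicate number alone, peaks lay within 1 h of each other for 46 of the 51, and 42 passed the thresholds for a strong rhythm on each alone. The means of these same arrays chose the probe sets, so this agreement is a description and no separate support.

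Ag.2R.1819.0_CDS_at had the largest fitted head amplitude in LD, with troughs under that background. Its head levels in LD were 6.45 at ZT12, 5.60 at ZT16, 5.40 at ZT20, 2.95 at ZT24, 2.66 at ZT28 and 3.30 at ZT32, then 5.59, 5.54, 5.08, 2.86, 2.81 and 3.62 at the same hours of the next day, and 6.07 at ZT60. Every collection at night from lights off lay above every collection from dawn to late day. In heads in DD it reached 3.99 at CT12, 4.10 at CT16 and 4.27 at CT36, and lay at 2.24 to 2.84 at the other hours. It failed the filter on low values, which took the mean over all heads arrays in LD and DD, and was not tested in DD.

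Ag.3R.329.1_CDS_at, with a head amplitude of 1.85, is the 1 member that bodies in LD failed only on the mean level. Its bodies had a mean of 3.77, under the threshold of 4, with a body amplitude of 1.45 and an R2 of 0.802. The fitted peak was at 17.8 h in heads and 19.3 h in bodies. In LD it ranged over 2.46 to 6.48 in heads and 2.16 to 5.50 in bodies. In DD the same probe set stayed between 2.12 and 2.27 in heads and between 1.98 and 2.21 in bodies, under the 95th percentile of the malaria parasite probe sets in either arm (3.82), and it was not tested.

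"Head-only" is therefore a matter of thresholds. Body amplitudes in LD had a median of 0.23 and ranged over 0.02 to 1.45, and 29 of the 51 were under 0.25. Bodies missed both amplitude and R2 in 35, those and the mean in 6, amplitude alone in 6, R2 alone in 3 and the mean alone in 1. Among the 7 with a body R2 of at least 0.7, all had a body peak from 14 h to under 22 h. Another 17 probe sets with a head peak in the same window were strong in both tissues and are not among the 51. Ag.2L.623.0_UTR_at stood just inside, with a body amplitude of 0.49, and Ag.2L.984.1_CDS_a_at just outside at 0.51. Without ZT52 in bodies the same rule gave 50 probe sets, 49 of them among the 51. At the window's early edge Ag.2R.1750.0_CDS_at peaked at 14.02 h inside and Ag.3R.297.0_CDS_a_at at 13.99 h outside, and at the late edge Ag.3L.446.8_UTR_a_at at 17.90 h inside and Ag.2L.284.0_CDS_at at 18.04 h outside. For amplitude the nearest values were 0.51 in Ag.3R.228.0_UTR_at inside and 0.496 in Ag.3R.2785.0_at outside.

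The first question that the choice left untouched is whether these head rhythms went on without light. In heads in DD, 27 of the 48 probe sets tested were rhythmic (limma, joint F-test of cosine and sine over 13 collections, adjusted p under 0.05 over all probe sets tested), which is 56.25%. Among all 7188 probe sets tested in heads the share was 8.92%. The remaining 3 of the 51 failed the filter on low values, and 5 of the 48 passed it although their DD mean lay under the level of the malaria parasite probe sets that set the filter. The filter took the mean over all heads arrays, so LD values had a part in which members were tested. All 27 peaked from CT10 to under CT18, where 2.8% of all probe sets tested were both called and peaked. The median DD amplitude was 0.41 log2 over the 48 and 0.15 over all probe sets tested. An unadjusted p under 0.05 was found for 34 of the 48. The count called at an adjusted p under 0.05 was 18 without replicate 1 and 21 without replicate 2, 18 with no filter and 28 without CT44. Shares over all probe sets are not set beside the unadjusted count and these alternatives, so only the main call is read against all probe sets.

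The DD crest came near subjective dusk. The median deviation of all 51 from their own mean in heads was -0.20 at CT0, -0.17 at CT4, -0.11 at CT8, 0.46 at CT12, 0.46 at CT16, 0.06 at CT20, -0.36 at CT24, -0.26 at CT28, -0.01 at CT32, 0.42 at CT36, 0.20 at CT40, -0.08 at CT44 and -0.25 at CT48. The median was higher at CT12 than at CT8 and at CT36 than at CT32, in constant dark. On the second day the highest of the collections from CT32 to CT44 was CT36 for 30 of the 51 and CT40 for 3, while on the first day it was CT12 for 22 and CT16 for 19.

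Ag.2R.2126.0_CDS_at had the largest DD amplitude among those called. In heads in DD it stood at 4.61 at CT0, 4.85 at CT4, 4.91 at CT8, 7.72 at CT12, 8.22 at CT16 and 6.30 at CT20, then at 4.52, 4.71, 5.99, 8.34, 8.22 and 5.07 at the same hours of the second day, and at 4.61 at CT48. All 4 collections at CT12, CT16, CT36 and CT40 lay above all others. The fitted DD amplitude was 1.97 ± 0.20 (SE, n = 13), a 15.4-fold swing with a peak at 14.2 h (limma adjusted p = 0.000355), beside an amplitude of 1.80 in heads in LD. Its body values, 2.21 to 2.24 in DD and 2.20 to 2.30 in LD, were under the 95th percentile of the malaria parasite probe sets in both arms, so a body rhythm could not be measured.

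Ag.2L.623.0_UTR_at swung in heads in DD about a mean level that bodies exceeded. Its head levels in DD were 6.59 at CT0, 6.58 at CT4, 6.41 at CT8, 8.56 at CT12, 8.55 at CT16, 7.07 at CT20, 6.47 at CT24, 5.43 at CT28, 6.61 at CT32, 8.61 at CT36, 8.32 at CT40, 7.23 at CT44 and 6.35 at CT48. The amplitude was 1.31 ± 0.15 (SE, n = 13) with a 6.15-fold swing and a peak at 14.8 h (limma adjusted p = 0.000647). CT12, CT16, CT36 and CT40 lay above all other collections. In bodies in DD it moved between 7.49 and 8.46 and was also called rhythmic. The body amplitude was 0.35 ± 0.08 with a peak at 18.9 h (SE, n = 13, limma adjusted p = 0.0445), a call that ended under 6 of 9 alternatives.

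**Figure D2:**
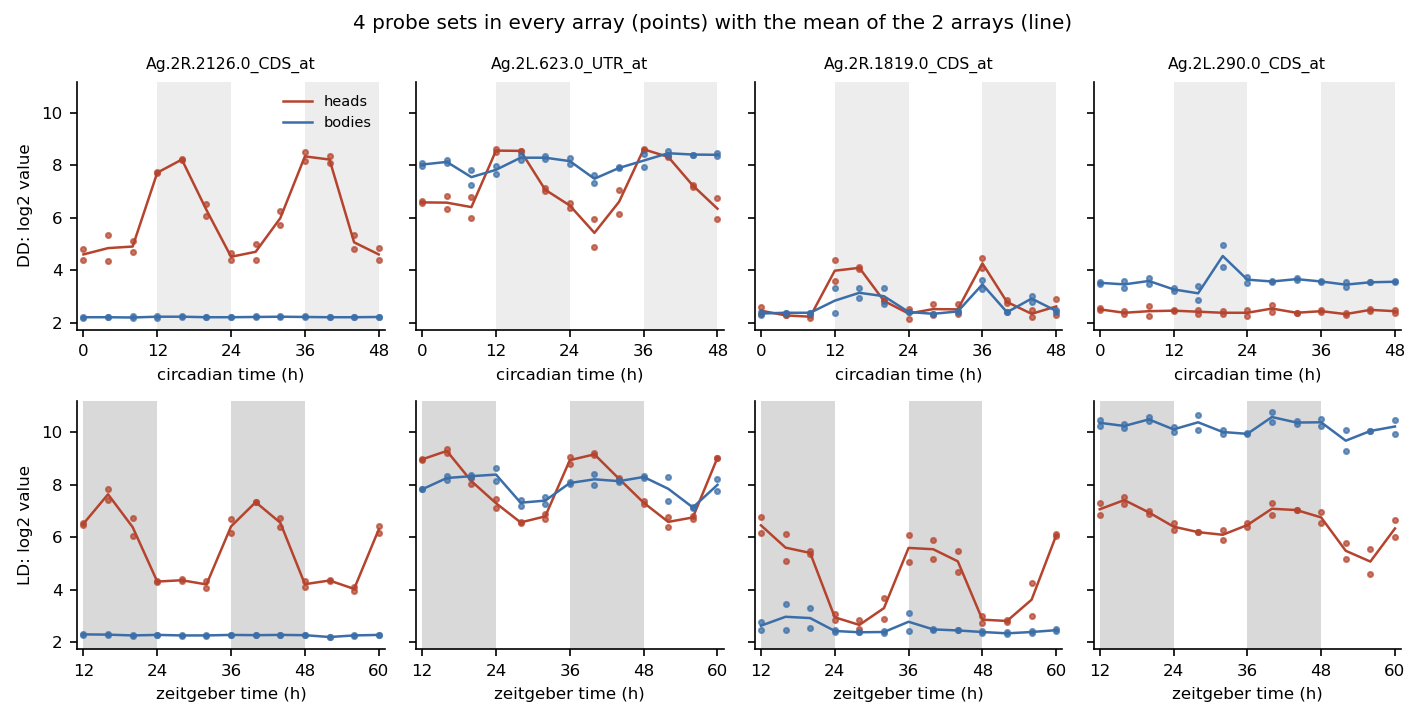
Log2 value (vertical) by hour (horizontal) for 4 probe sets, DD above and LD below, heads red and bodies blue; points are single arrays and lines the mean of the 2 arrays. Heads of the first 2 swing in both regimes, the third swings less in DD, and the fourth averages 2.44 in heads in DD against 6.48 in heads in LD.

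Most of the 27 swung less in DD than in LD. The DD amplitude was the smaller in 25 of the 27, with a median ratio of DD to LD amplitude of 0.722. Their DD peaks had a median of 13.9 h and came before the LD peak in 26 of 27, by a median of 1.51 h. The other 200 strong head-only probe sets called in heads in DD had a median ratio of 0.751 and a median DD minus LD peak of -0.74 h. These ratios and shifts rest on LD values that chose the probe sets, so they have no test. The earliest LD peaks, at 14.02 h in Ag.2R.1750.0_CDS_at and 14.03 h in Ag.3R.227.0_CDS_a_at, stood beside DD peaks at 11.7 h and 12.0 h. In heads in DD the amplitude of Ag.2R.1750.0_CDS_at was 0.44 ± 0.11 (SE, n = 13, limma adjusted p = 0.0499), beside 1.63 in LD. That of Ag.3R.227.0_CDS_a_at was 0.41 ± 0.13 (limma adjusted p = 0.125), and it was not called. Bodies in DD swung more than heads for Ag.2R.1750.0_CDS_at, with an amplitude of 0.74 and a peak at 17.1 h. This was the largest body amplitude in DD of the 51, but the probe set failed the filter in bodies and was not tested there. Its heads minus bodies rhythm was not called (amplitude 0.80, limma adjusted p = 0.0578), but was called under 4 of 9 alternatives.

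**Figure D3:**
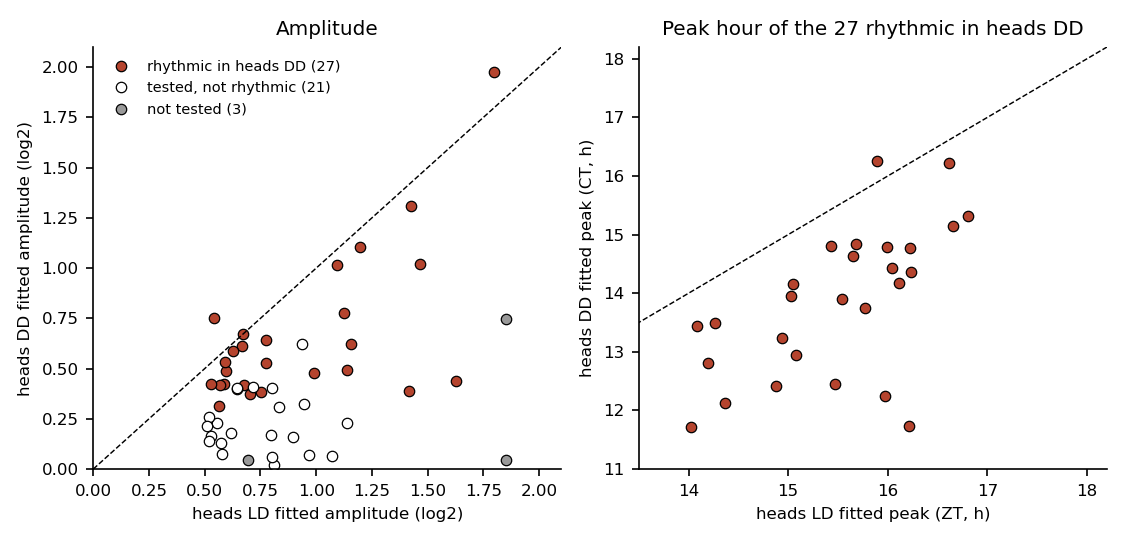
Left, fitted amplitude in heads in DD (vertical) against heads in LD (horizontal), log2, for the 51 probe sets by their call in DD; right, fitted DD peak (vertical, CT h) against LD peak (horizontal, ZT h) for the 27 called. Dashed lines mark equal values; 49 of the 51 lie below the line on the left and 26 of 27 on the right.

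Calls in DD were spread unevenly over the LD peak hours. They covered 7 of the 13 with an LD peak in the hour from 14, 12 of 16 in the hour from 15 and 8 of 15 in the hour from 16. The totals for the hours from 15 and 16 include probe sets that were not tested. In the hour from 17, limma called 0 of the 6 tested of 7, with an unadjusted p under 0.05 in 2. The 6 include Ag.2L.290.0_CDS_at, which was near background in DD, and both probe sets of cluster 3R.228, which may measure the same transcript. The latest peaks were those of Ag.3L.446.8_UTR_a_at at 17.90 h and Ag.2L.290.0_CDS_at at 17.84 h. Ag.3L.446.8_UTR_a_at had an amplitude of 0.18 ± 0.10 in heads in DD (SE, n = 13, limma adjusted p = 0.479), beside 0.62 in LD, at like mean levels of 7.07 in DD and 7.30 in LD. Bodies in DD were called rhythmic for this probe set, with an amplitude of 0.34 and a peak at 19.6 h (limma adjusted p = 0.00537). That body call was lost without replicate 2. Among head-only probe sets with neighbouring LD peaks, 68 of 97 tested with a peak from ZT10 to under ZT14 and 30 of 61 with a peak from ZT18 to under ZT22 were called in heads in DD. These shares were not tested against each other.

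Some members were near background in DD in both tissues. Mean head levels in DD were lower than in LD in 35 of the 51, and lower by at least 1 log2 unit in 21, of which 12 were also lower by at least 1 in bodies. In 3 the mean was higher in DD by at least 1, and after quantile normalization the counts of 35, 21 and 3 were the same, while the 12 became 13. Of the 21, 18 were tested and 6 called in heads in DD. Among members whose DD head mean was not under the 95th percentile of the malaria parasite probe sets, 5 of the 13 left of the 21, and 21 of the other 30, were called. In 8 of the 51 it was under that percentile. The median LD minus DD head level was 0.36 over the 51 and -0.08 over all 7188 probe sets that passed the heads filter. Shares over all probe sets are not set beside the counts of this paragraph. The LD values chose the members and the 2 regimes differed in the control probe sets above, so the difference in level was not tested.

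Of the members near background in DD, 2 had the smallest ratios of DD to LD amplitude among the members tested. Ag.2L.290.0_CDS_at lay between 2.34 and 2.55 in DD heads and 3.13 and 4.55 in DD bodies, against 5.07 to 7.41 in LD heads and 9.67 to 10.57 in LD bodies. Ag.2L.280.0_CDS_at lay between 3.14 and 3.43 in DD heads and 2.65 and 3.83 in DD bodies, against 4.92 to 7.60 in LD heads and 8.29 to 9.51 in LD bodies. In neither did DD and LD overlap, in heads or in bodies. A partner probe set of the first, Ag.2L.290.0_UTR_at, had the same pattern, with means of 2.87 in heads in DD and 6.86 in heads in LD. Heads in DD had no rhythm call for Ag.2L.290.0_CDS_at (amplitude 0.02 ± 0.04, limma adjusted p = 0.927) or Ag.2L.280.0_CDS_at (0.07 ± 0.05, 0.66). At such levels a rhythm could not be measured.

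In DD the fitted head peak lay earlier on the second day. With each cycle of 6 collections fitted alone, the 27 probe sets called in heads in DD had a median peak at 13.1 h in CT24 to CT44 and 14.6 h in CT0 to CT20. The median change was -1.49 h, and 23 of the 27 were earlier. In heads in LD their median change was -0.03 h, and 15 of 27 were earlier. The shift was not particular to them: over all 641 probe sets called in heads in DD it was -1.60 h, with 546 earlier. Without the last collection of each cycle, which leaves out CT44, the 27 shifted by -1.86 h, and with windows moved on by 4 h by -1.20 h (18 of 27). Ag.2R.2126.0_CDS_at peaked at 13.4 h in the second cycle and 15.01 h in the first, while Ag.2L.623.0_UTR_at peaked at 14.9 h and 14.7 h.

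**Figure D4:**
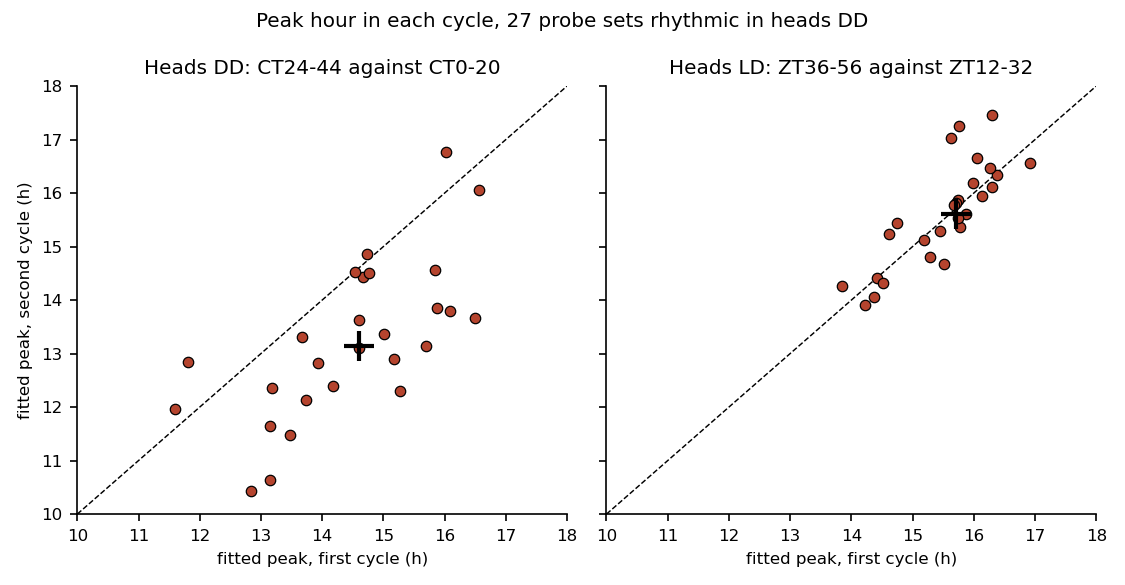
Fitted peak hour in the second cycle (vertical) against the first (horizontal) for the 27 probe sets called in heads in DD, each a point, in DD (left) and LD (right); crosses are medians and dashed lines mark equal hours. In DD the median is 13.1 h in the second and 14.6 h in the first cycle, and in LD 15.6 h in the second and 15.7 h in the first.

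No test of the 2 days reached the threshold for any of the 51. Between paired hours of the second and the first day in heads in DD, limma called 0 of 48 for level and 0 of 48 for the daily swing, and 0% of all 7188 probe sets for either. At an unadjusted p under 0.05, 6 of the 48 stood out for level, beside 18.8% of all probe sets, and 10 for the swing, beside 7.82%. The 6 paired differences limit this test. Ag.2R.2126.0_CDS_at had a difference in swing of amplitude 0.90 ± 0.21 (SE, n = 6 differences, limma adjusted p = 0.502).

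The second question is whether the rhythm in DD differed between the tissues, in arrays that the choice did not use. Heads minus bodies at each hour had a rhythm in 12 of 49 tested (24.5%; limma, adjusted p under 0.05), beside 4.08% of all 8438 probe sets tested. The count was 7 without replicate 1, 6 without replicate 2, 6 with no filter and 12 without CT44, with no share over all probe sets beside these alternatives. All 12 had the larger amplitude in heads and were also called in heads in DD. The median DD amplitude of the 12 was 0.76 in heads and 0.18 in bodies. In 2 of the 12, Ag.2R.2126.0_CDS_at among them, the body mean in DD was under the 95th percentile of the malaria parasite probe sets. These 2 passed the filter through heads alone, and their difference repeats the head rhythm: for Ag.2R.2126.0_CDS_at it had an amplitude of 1.97 ± 0.20 (SE, n = 13, limma adjusted p = 0.000242). In Ag.2L.623.0_UTR_at, measured in both tissues, it had an amplitude of 1.18 ± 0.13 (SE, n = 13, limma adjusted p = 0.000483). For 15 of the 27 called in heads in DD the difference from bodies was not called, so a tissue difference in rhythm was not shown for those.

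Bodies in DD gave fewer calls. There 8 of 45 tested were rhythmic (17.8%; limma, adjusted p under 0.05), beside 6.69% of all 7325 probe sets tested. An unadjusted p under 0.05 was found for 21. The body peaks of the 8 called ran from 12.9 h to 23.2 h with a median of 18.4 h, and 6 of the 8 were also called in heads in DD. The count called was 4 on replicate 2 arrays alone and 3 on replicate 1 arrays alone. Shares over all probe sets are not set beside the unadjusted count and the counts on single replicates.

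The largest body amplitudes among the 8 were in Ag.3R.586.0_CDS_a_at and Ag.2R.993.0_CDS_a_at. Ag.2R.993.0_CDS_a_at kept similar hours in both tissues, with an amplitude of 0.61 ± 0.08 and a peak at 13.2 h in heads in DD (limma adjusted p = 0.00105) and 0.54 ± 0.10 and 14.3 h in bodies in DD (SE, n = 13, 0.0144). It had passed as head-only because its body R2 in LD was 0.560, with a body amplitude of 0.68 and a low of 4.62 at ZT28. Ag.3R.586.0_CDS_a_at peaked in bodies in DD at 23.2 h with an amplitude of 0.57 ± 0.12 (SE, n = 13, limma adjusted p = 0.0256). In heads in DD its amplitude was 0.26 ± 0.09, with a peak at 19.0 h (limma adjusted p = 0.177). Its body level in DD was lowest at CT12, at 3.85, and highest at CT48, at 5.94. CT48 also had the largest Gapdh 3′ and 5′ difference of bodies in DD, 5.46 against 4.83 at the next highest collection. The fit without CT48 was not run. The body calls of these 2 were lost without replicate 1 (Ag.2R.993.0_CDS_a_at) or without replicate 2 (Ag.3R.586.0_CDS_a_at), and both without the filter, with adjusted p over all alternatives of 0.000137 to 0.11 and 0.00731 to 0.58.

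As deposited, more of the members were lower than higher in heads against bodies in DD, as was so over all probe sets tested. In DD the level differed between heads and bodies in 46 of 49 tested (limma, adjusted p under 0.05), where 92.5% of all probe sets did. It was higher in heads in 17 and lower in 29, beside 32% and 60.5% of all probe sets tested. A probe set entered this test if it passed the filter in either tissue. Members such as Ag.2R.2126.0_CDS_at and Ag.2R.1750.0_CDS_at passed through heads alone, so the filter favoured their higher level in heads. The median difference was -0.44 log2 over the 49 and -0.52 over all. After quantile normalization of the arrays of both tissues, which moved the median of all probe sets by 0.56, 25 were higher in heads and 23 lower, beside 3931 higher and 3769 lower of all. The split by direction thus depends on the scaling, while the 4 differences that follow kept their sign.

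Ag.2L.1623.0_CDS_at was the farthest above bodies, at 7.81 to 9.16 in DD heads and 4.06 to 4.70 in DD bodies, a difference of 4.20 ± 0.09 (SE, n = 13, limma adjusted p = 2.42e-15). Next by the fit was Ag.2R.2126.0_CDS_at, higher in heads by 3.91 ± 0.14 (adjusted p = 8.14e-13, limma), with bodies not above background, so the size of its difference is not exact. It passed the filter through heads alone, which favoured this direction. At the other end Ag.3R.227.0_CDS_a_at lay at 4.92 to 6.46 in DD heads and 9.76 to 10.49 in DD bodies, a difference of -4.25 ± 0.09 (limma adjusted p = 1.06e-15). Ag.2L.307.0_CDS_at differed by -3.10 ± 0.28 (limma adjusted p = 4.65e-08), with 2.51 to 2.96 in heads, which is not above background, and 3.70 to 7.90 in bodies. The size of that difference is likewise not exact. Heads and bodies did not overlap at any hour in these 4. The rhythm of Ag.2L.1623.0_CDS_at in heads in DD had an amplitude of 0.42 ± 0.10 (limma adjusted p = 0.045), a call that ended under 8 of 14 alternatives, among them each replicate number alone and leaving out CT0, CT8, CT12, CT16 or CT36.

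**Figure D5:**
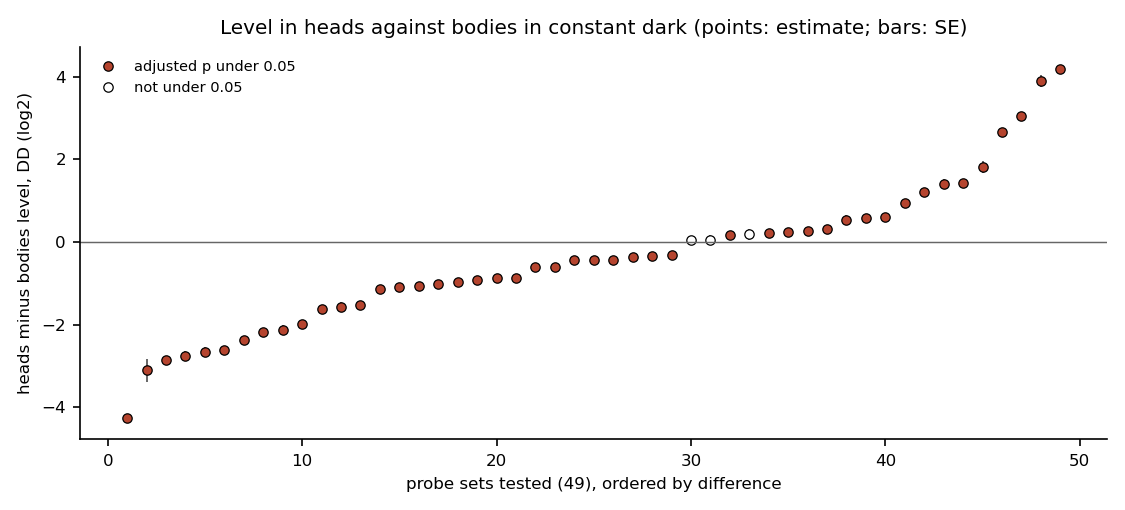
Heads minus bodies level in DD (vertical, log2, points with SE bars, n = 13 hours) for the 49 probe sets tested, ordered by size (horizontal); filled points have an adjusted p under 0.05. The estimates run from -4.25 to 4.20, with 29 called lower and 17 called higher in heads, beside 60.5% lower and 32% higher of all probe sets tested.

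Probe sets that share a cluster name with a member gave a further reading of the LD rhythm in heads. In 14 clusters there were 17 such partners outside the 51, of which 11 lay above the 95th percentile of the malaria parasite probe sets in heads in LD. An R2 of at least 0.7 was found in 4 of the 11, and all 4 peaked within 2 h of the member. Of these, Ag.3R.227.0_UTR_a_at peaked at 12.4 h, before the early-night window, with an amplitude of 0.57 and an R2 of 0.757. Its member Ag.3R.227.0_CDS_a_at peaked at 14.03 h, so the placing of that cluster depended on the probe set. Partners may measure the same transcript, so they are not separate genes.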

How the data were processed

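Female Anopheles gambiae heads and bodies were measured on 104 Affymetrix arrays. The deposited values are log2 levels per probe set, which the authors obtained with GCRMA per the submitters' processing notes. GCRMA corrects background, normalizes between arrays and summarizes probes. Its version was not given in the sources used here, nor the set of arrays it was run on. Values ran from 0.69 to 15.63. The table holds 22761 probe sets, of which 16884 are named as Anopheles and 4502 as the parasite Plasmodium falciparum. The number of arrays limits the precision.

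Cosine curves with a 24 h period were fitted to collection means. For tests, probe sets with a mean over all arrays of a tissue higher than the 95th percentile of parasite probe sets (3.75 in heads, 3.78 in bodies) were fitted together with limma 3.58.1 in R 4.3.3 (lmFit, eBayes). Benjamini-Hochberg adjustment ran over all of them, at a threshold of 0.05. Heads and bodies were compared as differences at each of 13 hours, in probe sets that passed in either tissue, and days as 6 paired differences. The fits were tested on simulated data. The members and lists were chosen with earlier results of these data known. IDs were named by fixed patterns: the 2 extremes of LD amplitude, DD amplitude, amplitude ratio, tissue level, tissue difference in rhythm and peak hour. Those at a threshold's edge and partners were added after seeing values. Gene lists were not applied, since no probe set could be named. Alternatives were single replicates, other filters, quantile normalization, single arrays, a linear trend and left-out collections.

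Replicate numbers were checked by the differences between the 2 arrays of a collection. These correlated above 0.1 in 34 of 78 pairs of collections in heads in DD and 30 of 78 in bodies in DD, so the numbers were not taken as pairs in DD. In LD they did so in 78 of 78 in heads and 66 of 78 in bodies, which no test here used.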

Additional observations from a re-analysis of the deposited data

Results flagged for a closer look

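In constant dark the daily swing differed between heads and bodies by a test of the difference itself in 12 of the 49 early-night probe sets tested (limma, adjusted p under 0.05). The share was 24.5%, beside 4.08% of all probe sets tested, 41.8% of head-only probe sets with an LD peak from ZT10 to under ZT14 and 26.2% of those from ZT18 to under ZT22. The count was 6 to 7 on either replicate alone, with no share over all probe sets beside it. In each of the 12 the swing was the larger one in heads. For Ag.2R.2126.0_CDS_at the difference between heads and bodies had an amplitude of 1.97 ± 0.20 log2 (SE, n = 13 hours, limma adjusted p = 0.000242). Its body values were under the 95th percentile of the malaria parasite probe sets, as in 1 other of the 12, so its difference repeats the head rhythm and no body rhythm could be measured. For Ag.2L.623.0_UTR_at it had an amplitude of 1.18 ± 0.13 (limma adjusted p = 0.000483), with levels above that percentile in both tissues.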

How the results depend on the processing

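The count rhythmic in heads in DD, 27, ran from 18 to 33 over all alternatives, with 18 without replicate 1, 21 without replicate 2 and 18 with no filter; leaving out CT12, CT16, CT0, CT8, CT36 or CT44, of which the first 5 were chosen after seeing the data, gave 20 to 28. Bodies in DD gave 3 to 4 of 8 without 1 replicate and 4 with no filter, and 20 or 19 on single arrays with or without the replicate block. The heads and bodies difference in rhythm gave 6 to 7 of 12 without 1 replicate and 6 with no filter, and 22 or 23 on single arrays with or without the block. Differences between days, 0 in the main test, came to 3 or 4 for level, all lower on the second day, and 2 or 3 for the swing on single arrays with or without the block. In the main fit the median change of level was -0.081 over the members tested and -0.085 over all probe sets tested, so the direction is not particular to the members. With the block 32 were called in heads in DD and 46 for level. These fits count 2 arrays per collection as separate, and the block is a shared number only. Shares over all probe sets under each setting are not set beside the counts of this paragraph. The counts thus show how far the calls depend on the setting and are not read as a trait of the members. Under quantile normalization the level of Ag.3L.446.8_UTR_a_at in heads minus bodies reversed to 0.21, against -0.44, and the heads and bodies split was 25 to 23. Under the rule itself the group numbered 54 without replicate 1 and 56 without replicate 2 (42 of the 51 in each), 49 after quantile normalization, 40 at an amplitude of 0.6, 42 at an R2 of 0.8 and 50 without ZT52 in bodies, the last chosen after seeing the data. Besides those given above, further calls of single probe sets ended. They were Ag.2R.1750.0_CDS_at in heads in DD (7 of 14 alternatives, limma adjusted p 0.00189 to 0.165) and Ag.2L.623.0_UTR_at in bodies in DD (6 of 9, 0.0013 to 0.15). The call of Ag.3L.446.8_UTR_a_at in bodies in DD ended in 1 of 9 (limma adjusted p 4.76e-05 to 0.0798). The causes of these changes were not tested. Levels near those of the parasite probe sets limit what can be read in DD for 8 of the 51 in heads, 8 in bodies and 10 in either.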
